A study of Homo sapiens with 12 samples.

Results

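The genes of the interleukin 6 (IL-6) family were measured by RNA-seq in 4 stable lines made from the human lung adenocarcinoma cell line A549. They are 10 of the 60623 genes in the count table, chosen by symbol: the ligands IL6, IL11 and LIF, the receptor chains IL6R, IL11RA, LIFR, OSMR and IL6ST, and the signal genes STAT3 and SOCS3. Every line was made by lentiviral infection and hygromycin selection of the same parental cells. V carried the empty vector pLV-EF1a-IRES-Hygro. WT carried HA-tagged wild-type AHR, the aryl hydrocarbon receptor, SA carried HA-AHR with S489A, which cannot be phosphorylated at that serine, and SD carried HA-AHR with S489D, which mimics the phosphorylated serine. The EF1a promoter of the vector drives the construct, and A549 cells keep an AHR gene of their own. There were 12 libraries, 3 per line, labelled as biological replicates. As 1 line stands for each construct, the construct and any other difference between lines cannot be told apart.

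Cytokines of this family bind a ligand-specific receptor chain and share the signal-transducing chain IL6ST. Bound receptors activate the JAK kinases, which phosphorylate STAT3, and STAT3 then enters the nucleus and raises target genes, among them its own feedback inhibitor SOCS3. In lung epithelium and lung adenocarcinoma the pathway is known for its part in inflammation, survival and the acute-phase response.

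Expected counts per library summed to between 7844045 and 11765576. Levels are given as CPM (counts scaled to the TMM-normalized library size, as mean ± SD, n = 3), and a count of 0 allowed up to 0.255 to 0.382 CPM (3 counts per library, counting error only). AHR, the check of the labels, was at 69.1 ± 4.51 CPM in V and far higher in the lines with a construct (WT 266 ± 28.3, SA 223 ± 5.89 and SD 210 ± 9.14), without the reads that the counting gave to a gene overlapping it on the same strand. Among the lines with a construct, AHR was lower in SD than in WT (log2 fold change −0.345, adjusted p = 0.00774, edgeR). WT against SA (0.259, adjusted p = 0.136) and SD against SA (−0.0853, adjusted p = 0.704) did not pass the threshold. All WT libraries (234 to 285 CPM) lay above those of SA (219 to 230) and SD (202 to 220), and SA and SD overlapped. With the reads of the overlapping gene left out, the order of these lines in total AHR reads was not tested. Of the epithelial markers, KRT7, KRT8, KRT18 and CDH1 were abundant, whereas EPCAM stayed near 1 CPM and KRT19 below it in every line. Their summed level was 7620 to 8017 CPM in the V libraries, 6419 to 6517 in WT, 6218 to 6376 in SA and 5767 to 6064 in SD. For CDH1 the line means were 170 (V), 112 (WT), 112 (SA) and 126 CPM (SD). Of the 4 alveolar markers NKX2-1, SFTPB and SFTPC were near 0, and NAPSA was at 3.21 to 3.76 CPM (line means). Among the 6 immune markers 3 had no count in any library and CD14 alone exceeded 1 CPM. CD14 moved with the lines, and the summed level of these markers was 11.4 to 12.96 CPM in V, 14.6 to 16.1 in WT, 12.9 to 17.1 in SA and 16.5 to 22.4 in SD. Of the 7 fibroblast markers, COL1A1 alone exceeded 1 CPM, and no endothelial marker did. The fibroblast markers summed to 10.3 to 13.9 CPM in V, 5.97 to 7.68 in WT, 7.77 to 8.66 in SA and 7.61 to 10.3 in SD. The part of these markers in the results below was not tested.

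The sequences upstream of 3 genes are shown because IL6 and SOCS3 had the highest F statistics of the family among the 4 lines and IL11, a second ligand, did not pass that test. They are RefSeq sequences of GRCh38.p14, written from 5′ to 3′ on the strand of the gene, without bases that lie in an exon of the gene. In IL6 they cover 250 to 54 bases before the RefSeq start (chr7:22726950-22727146, plus strand), which lies 1316 bases inside the deposited gene. Capitals mark a match to the NF-kB motif GGGANNTTCC, 73 to 64 bases before the start.
IL6: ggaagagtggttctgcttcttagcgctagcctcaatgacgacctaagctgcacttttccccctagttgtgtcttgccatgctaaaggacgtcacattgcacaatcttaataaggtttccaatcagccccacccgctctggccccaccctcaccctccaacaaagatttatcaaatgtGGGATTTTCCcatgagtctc
In SOCS3 the 250 bases before the start are shown (chr17:78360926-78361175, minus strand), and this RefSeq start lies 848 bases outside the deposited gene. Capitals mark a match to the core motif of AHR, GCGTG, 96 to 92 bases before the start. SOCS3 has a second RefSeq start, 410 bases inside the deposited gene, whose window also held GCGTG and is not shown.
SOCS3: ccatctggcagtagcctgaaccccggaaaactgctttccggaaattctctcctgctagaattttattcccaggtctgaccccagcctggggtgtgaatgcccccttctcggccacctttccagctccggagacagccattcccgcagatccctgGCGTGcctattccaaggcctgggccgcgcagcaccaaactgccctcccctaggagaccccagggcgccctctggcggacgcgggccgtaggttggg
In IL11 the 250 bases before the start are shown (chr19:55370464-55370713, minus strand). Capitals mark GCGTG at 152 to 148 bases and the AP-1 motif TGANTCA at 96 to 90 bases before the start.
IL11: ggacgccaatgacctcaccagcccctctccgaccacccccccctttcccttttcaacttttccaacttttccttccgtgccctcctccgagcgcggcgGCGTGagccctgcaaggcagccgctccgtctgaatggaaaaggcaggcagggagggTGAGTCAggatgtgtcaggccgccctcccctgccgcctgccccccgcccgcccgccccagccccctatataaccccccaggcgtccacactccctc
The motifs were searched on both strands in RefSeq windows of 300 bases (250 before and 50 after a start), of which 13 belonged to 9 of the 10 genes. GCGTG was found in 6 of the 13 windows (IL11, LIFR, STAT3 and SOCS3), and in 36.5% of the 34943 windows of all genes. The STAT motif TTCNNNGAA was found in 2 windows, both of LIFR (7.7% of all windows), and TGANTCA in 3, of IL11, IL6R and OSMR (7.7%). The NF-kB motif was found in the IL6 window alone among these genes and in 1.6% of all windows. A match is a description of the letters and not a measured site.

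IL6, the founding cytokine of the family, was the gene that differed most in fold between the lines, at a very low level. IL6 (ENSG00000136244, chromosome 7 of GRCh38, 22725884 to 22732002, plus strand) had 2, 2 and 2 counts in the V libraries, 6, 9 and 8 in WT, 2, 7 and 10 in SA, and 15, 23 and 22 in SD. In CPM these were 0.206, 0.212 and 0.210 in V, 0.762, 0.790 and 0.891 in WT, 0.200, 0.598 and 0.883 in SA, and 1.501, 2.47 and 1.96 in SD. All 3 SD libraries lay above the 9 others, while SA replicate 1 lay with V. From low to high, the means were 0.209 ± 0.00336 CPM (V), 0.560 ± 0.343 (SA), 0.814 ± 0.0676 (WT) and 1.98 ± 0.483 (SD). In a bulk library, fewer cells that express a gene and less RNA per cell cannot be told apart.

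Between SD and V, IL6 rose (log2 fold change 3.16, standard error, SE, 0.56, adjusted p = 5.12e-04, edgeR's quasi-likelihood test with Benjamini-Hochberg adjustment over all genes tested). Summed over the 3 libraries, it had 60 counts in SD and 6 in V, a ratio of 9.38 after normalization, with an exact 95% interval for counting error of 4.07 to 26.6. The SD to WT ratio was 2.41 (1.47 to 4.09) and the SD to SA ratio 3.41 (2.01 to 6.06). Against V, the ratio was 3.89 for WT (1.54 to 11.7) and 2.75 for SA (1.06 to 8.41), intervals that leave out the spread between libraries. In the fit, IL6 in SD did not pass the threshold against WT (log2 fold change 1.26, SE 0.43, adjusted p = 0.237, edgeR) or against SA (1.77, SE 0.48, adjusted p = 0.199). The filter on low counts kept IL6 only in the comparisons that include SD. When every gene with at least 1 count was tested, the log2 fold change of IL6 was 1.90 in WT against V (adjusted p = 0.310, edgeR) and 1.40 in SA against V (adjusted p = 0.583). WT and SA, the neighbours in the middle of the order, had a ratio of 1.41 with an interval from 0.737 to 2.75. The call of SD against V was kept when each of the 6 libraries was left out in turn (log2 fold change 2.98 to 3.32). An exact permutation test of 3 libraries against 3 cannot give a two-sided p below 0.1.

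IL11 and LIF, the other ligands, were far more abundant than IL6. IL11 (ENSG00000095752, chromosome 19, 55364382 to 55370463, minus strand) is a cytokine known for its roles in fibrosis and bone. Its libraries were at 21.7, 24.5 and 20.8 CPM in V, 23.4, 17.2 and 19.7 in WT, 28.6, 22.8 and 21.7 in SA, and 26.5, 21.1 and 24.8 in SD. The lines overlapped throughout. No comparison passed the threshold, and the largest differences were SD above WT (log2 fold change 0.28, SE 0.12, adjusted p = 0.415, edgeR) and WT below SA (−0.29, SE 0.12, adjusted p = 0.649).

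LIF (ENSG00000128342, chromosome 22, 30240453 to 30246759, minus strand), which signals through LIFR and IL6ST, was at 193, 194 and 206 CPM in V, 172, 180 and 176 in WT, 213, 176 and 179 in SA, and 198, 168 and 173 in SD. All WT libraries lay below all V libraries, while SA and SD overlapped V through replicate 1 of each. LIF fell in WT against V, by 0.17 on the log2 scale (SE 0.05, adjusted p = 0.0403, edgeR). That call was lost when any 1 of the 6 libraries was left out (adjusted p = 0.0576 to 0.199). In SD against V the log2 fold change of LIF was −0.14 (SE 0.06, adjusted p = 0.239), and without SD replicate 1 it was −0.21 (adjusted p = 0.0211).

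**Figure D1:**
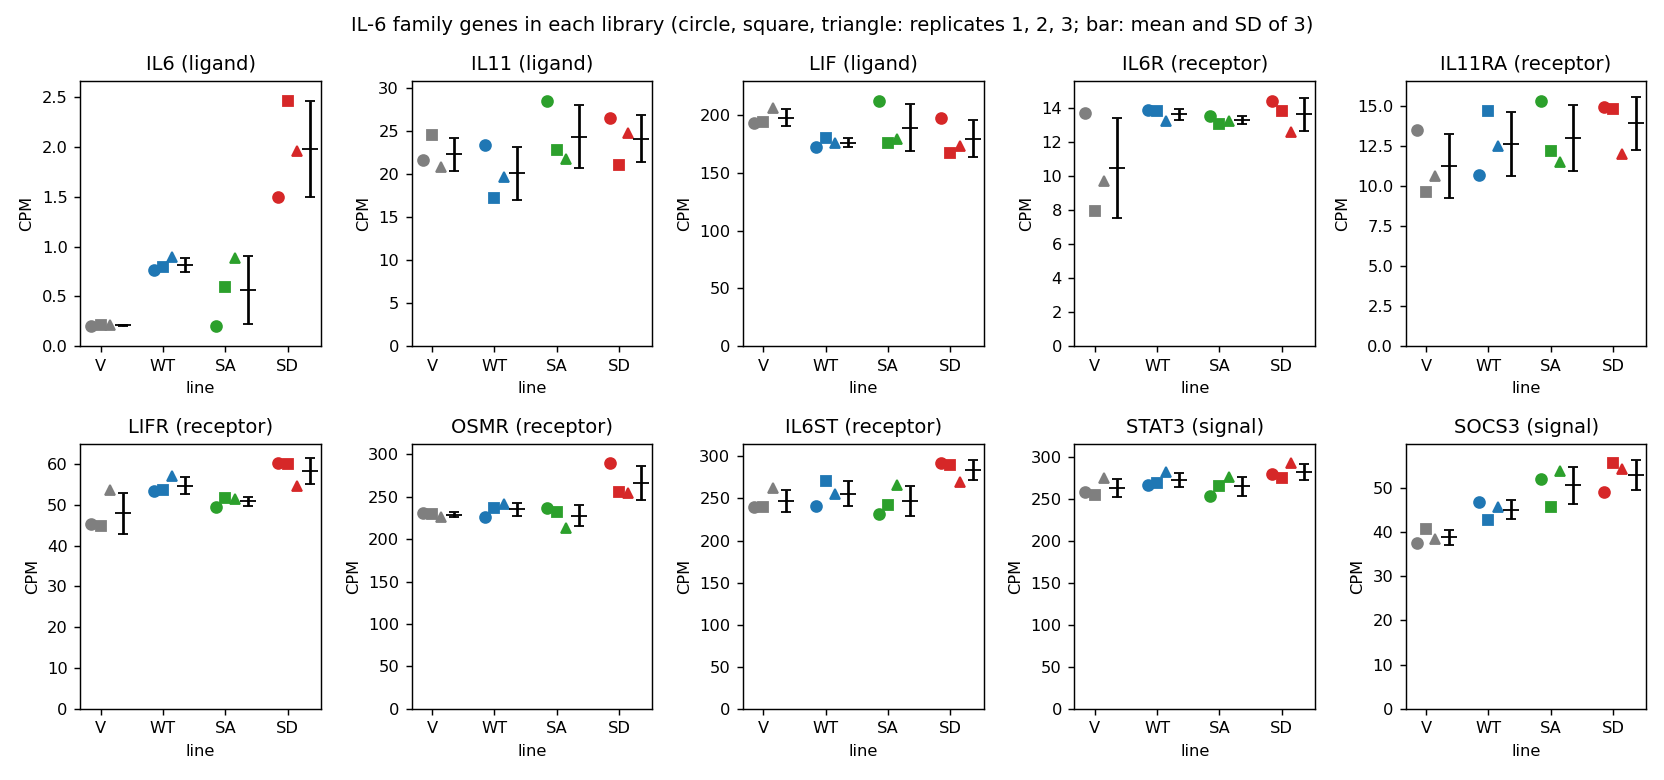
Level of each of the 10 genes in each library, in CPM on linear axes from 0, for the lines V, WT, SA and SD (markers are the 3 replicates, black bars the mean and SD). IL6 is at 0.206 to 0.212 CPM in V and 1.501 to 2.47 in SD, and the other genes differ between lines by far less than their own level.

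The 5 receptor chains IL6R, IL11RA, LIFR, OSMR and IL6ST had counts in every library. Per kb of exonic length, the scale on which genes can be compared, OSMR was the most abundant of these chains with 31.9 CPM per kb in V and 37.1 in SD. IL6ST followed with 20.5 and 23.5, then LIFR with 3.94 and 4.79, IL11RA with 2.14 and 2.65, and IL6R with 1.49 and 1.95. Among the ligands LIF was at 51.1 CPM per kb in V, IL11 at 8.34 and IL6 at 0.0485. In SD, LIF was at 46.4, IL11 at 9.01 and IL6 at 0.457 CPM per kb. STAT3 was at 23.5 and SOCS3 at 14.2 CPM per kb in V. IL6 thus remained the least abundant of the 10 genes per length in every line, SD included.

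**Figure D2:**
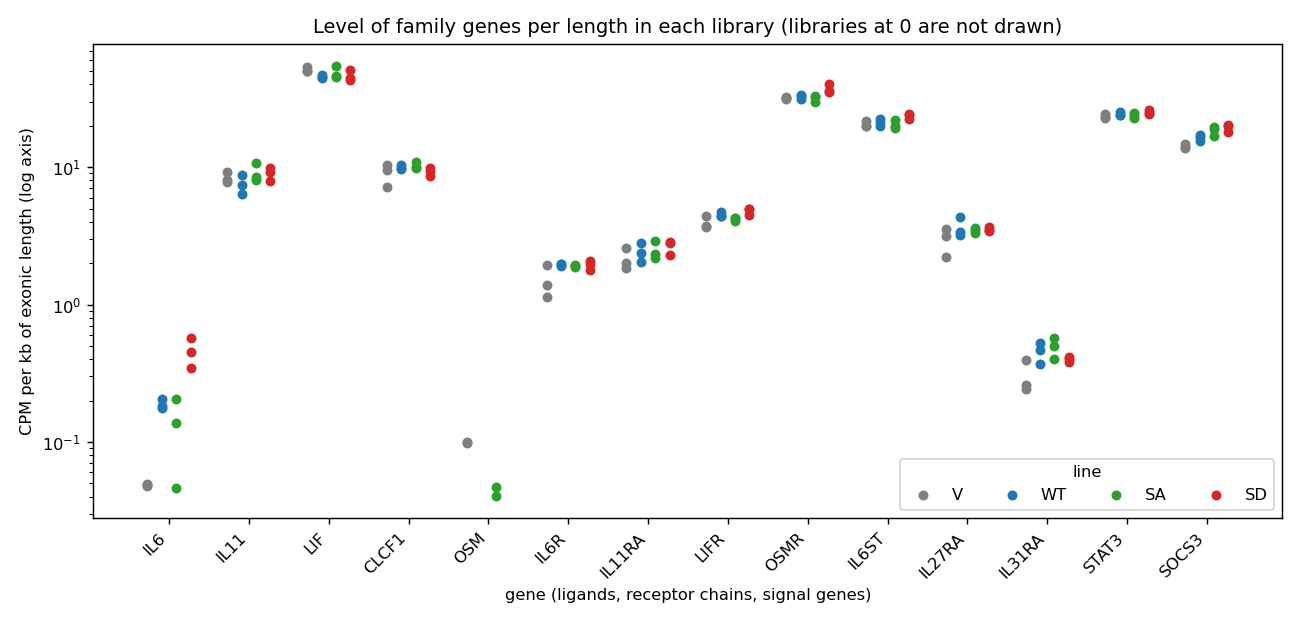
Level per length of the 10 genes and of 4 further family genes with counts (CLCF1, OSM, IL27RA, IL31RA), in CPM per kb of exonic length on a log axis. Each point is a library, coloured by line, and libraries at 0 are not drawn. LIF and OSMR stand at the top, and IL6 below the other members in every line.

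OSMR, LIFR and IL6ST, the chains that bind oncostatin M and LIF, rose in SD against V. OSMR (ENSG00000145623, chromosome 5, 38845858 to 38945596, plus strand), the specific chain for oncostatin M, was at 231, 230 and 226 CPM in V, 226, 237 and 241 in WT, 237, 232 and 213 in SA, and 289, 255 and 255 in SD. The 3 SD libraries lay above all others, and SD replicate 1 stood above the other two. The log2 fold change of SD against V was 0.22 (SE 0.06, adjusted p = 0.0198, edgeR). OSMR had values of similar size against WT (0.18, SE 0.06, adjusted p = 0.195) and against SA (0.23, SE 0.06, adjusted p = 0.199), which did not pass. Without SD replicate 1 the log2 fold change of SD against V was 0.16, and the call was also lost without V replicate 1, 2 or 3 (adjusted p up to 0.103).

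LIFR (ENSG00000113594, chromosome 5, 38474668 to 38608354, minus strand), the receptor for LIF, was at 45.4, 44.8 and 53.6 CPM in V, 53.4, 53.6 and 57.1 in WT, 49.5, 51.6 and 51.5 in SA, and 60.2, 60.0 and 54.5 in SD. The SD libraries lay above those of V and SA and overlapped those of WT. Compared with V, LIFR had a log2 fold change of 0.28 in SD (SE 0.08, adjusted p = 0.0413, edgeR), and it was 0.19 in WT (adjusted p = 0.201) and 0.09 in SA (adjusted p = 0.607). The call in SD was lost without V replicate 1 or 2 or SD replicate 1 or 2 (adjusted p up to 0.199), and with DESeq2.

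IL6ST (ENSG00000134352, chromosome 5, 55935095 to 55995022, minus strand), the shared signalling chain, was at 239.7, 239.3 and 262 CPM in V, 241, 271 and 256 in WT, 232, 242 and 266 in SA, and 292, 290.2 and 270 in SD. Every SD library lay above every V and SA library, although SD replicate 3 was within the range of WT. The log2 fold change of SD was 0.20 against V (SE 0.06, adjusted p = 0.0328, edgeR), 0.20 against SA (SE 0.06, adjusted p = 0.281) and 0.15 against WT (SE 0.06, adjusted p = 0.308). Without V replicate 1 or 2 or SD replicate 1 or 2 the call against V was lost (adjusted p up to 0.190). All 3 genes lie on chromosome 5, and LIFR and OSMR are 237503 bases apart. OSMR shares 229 exonic bases with RICTOR on the opposite strand, IL6ST 797 with an antisense RNA and LIFR 629 with LIFR-AS1. The sources used here do not state whether the counting used strand, so reads from these overlaps cannot be assigned.

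IL6R and IL11RA, the ligand-specific chains for IL6 and IL11, did not pass in any comparison. IL6R (ENSG00000160712, chromosome 1, 154405193 to 154469450, plus strand) was at 13.7, 7.96 and 9.68 CPM in V, 13.8, 13.8 and 13.2 in WT, 13.5, 13.1 and 13.2 in SA, and 14.4, 13.8 and 12.6 in SD. The 9 libraries of the AHR lines lay close together, and V replicate 1 lay among them, apart from the other V libraries. The log2 fold change against V was 0.38 in WT (SE 0.17, adjusted p = 0.219, edgeR), 0.34 in SA (0.17, adjusted p = 0.246) and 0.38 in SD (0.17, adjusted p = 0.230). Without V replicate 1 it was 0.63 in WT (adjusted p = 0.0438), 0.59 in SA (adjusted p = 0.0513) and 0.62 in SD (adjusted p = 0.0451). IL11RA (ENSG00000137070, chromosome 9, 34650702 to 34661892, plus strand) was at 13.5, 9.66 and 10.6 CPM in V, 10.7, 14.7 and 12.5 in WT, 15.3, 12.2 and 11.5 in SA, and 14.9, 14.8 and 12.03 in SD. Its lines overlapped, and its largest log2 fold change was 0.30 in SD against V (95% interval −0.000923 to 0.61, adjusted p = 0.320). It shares 1706 exonic bases with an overlapping gene on the same strand, and its expected count was not whole in 8 libraries.

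SOCS3, the feedback inhibitor that binds the receptor and JAK kinases, was higher in SA and in SD than in V. SOCS3 (ENSG00000184557, chromosome 17, 78356778 to 78360077, minus strand) was at 37.4, 40.6 and 38.4 CPM in V, 46.9, 42.7 and 45.6 in WT, 52.0, 45.8 and 53.9 in SA, and 49.0, 55.5 and 54.2 in SD. All 9 libraries of the AHR lines lay above the 3 of V. SOCS3 rose against V, with log2 fold changes of 0.45 in SD (SE 0.08, adjusted p = 6.38e-04, edgeR) and 0.38 in SA (SE 0.08, adjusted p = 0.0031). Both calls were kept when each library was left out in turn. In WT against V the log2 fold change was 0.21 (SE 0.08, adjusted p = 0.142), which did not pass. In the order V, WT, SA, SD, the neighbours WT and SA differed by −0.17 for WT (95% interval −0.32 to −0.013, adjusted p = 0.680) and SD and SA by 0.07 for SD (−0.090 to 0.23, adjusted p = 0.873). The difference of SD from WT was 0.24 (SE 0.08, adjusted p = 0.225), and all SD libraries lay above all WT libraries.

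STAT3 (ENSG00000168610, chromosome 17, 42313324 to 42388568, minus strand), the transcription factor that carries the signal, was at 259, 255 and 275 CPM in V, 267, 269 and 282 in WT, 254, 266 and 277 in SA, and 280, 275 and 293 in SD. Lines overlapped for STAT3 too, and its largest log2 fold change was 0.11 in SD against V (95% interval −0.000644 to 0.21, adjusted p = 0.322, edgeR). RNA levels do not measure the phosphorylation of STAT3.

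**Figure D3:**
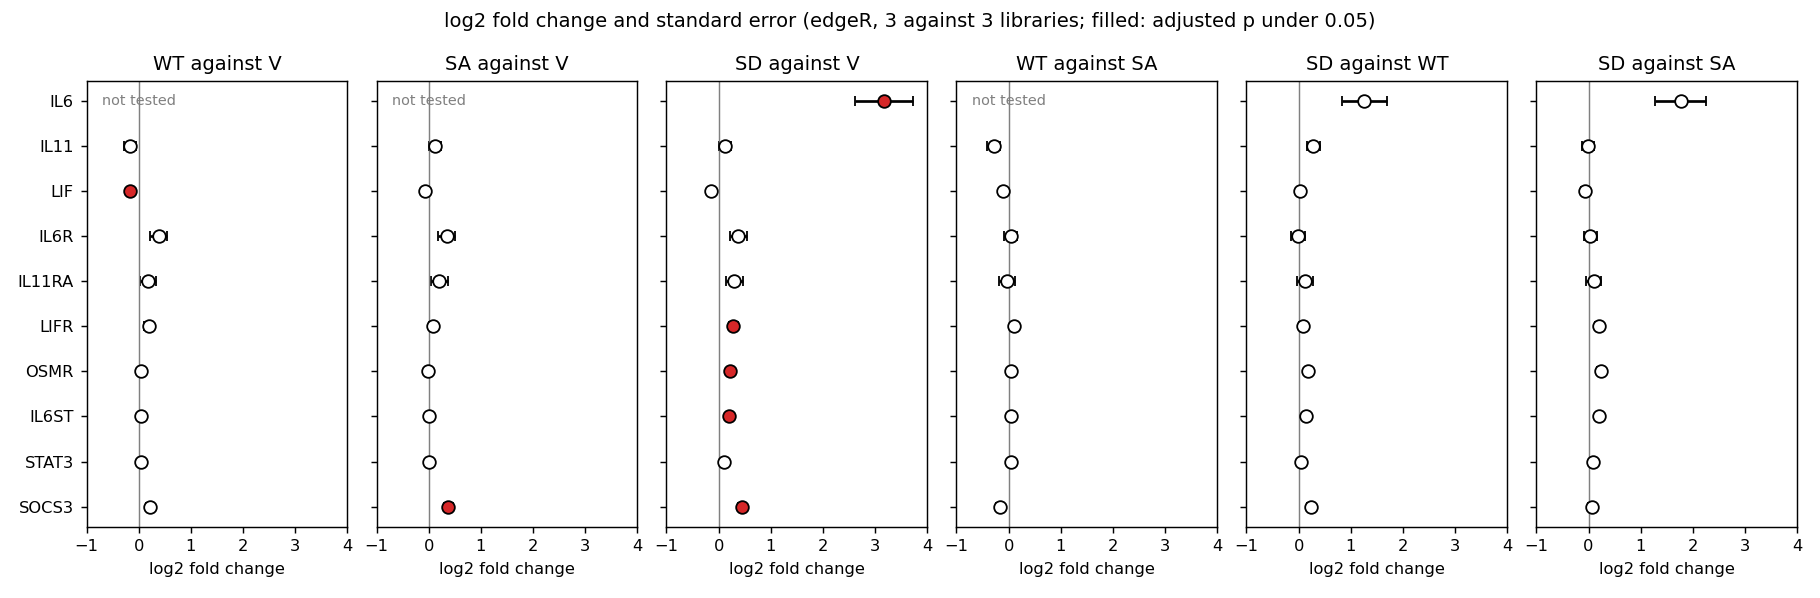
log2 fold change of each gene in the 6 comparisons of lines (points with standard error, first line minus second). Filled points passed an adjusted p of 0.05, and IL6 was not tested where SD was absent. The filled points are LIF in WT against V, SOCS3 in SA against V, and IL6, LIFR, OSMR, IL6ST and SOCS3 in SD against V.

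Counted by comparison, 5 of the 10 genes passed in SD against V, all higher in SD (IL6, LIFR, OSMR, IL6ST and SOCS3), where 5.41% of all 14890 genes tested passed and 2.92% passed as higher. Their median log2 fold change was 0.25, against 0.0030 over all genes tested. All SD libraries lay above all V libraries for the same 5 genes (10.7% of all genes). In SA against V, SOCS3 passed of 9 genes tested (7.17% of all genes), and in WT against V, LIF passed of 9 (5.24%). The gene left out of both was IL6, which passed the filter on low counts only where SD was included. Its pass in SD against V therefore has no counterpart in these comparisons. When every gene with at least 1 count was tested, IL6 included, 5 of 10 passed in SD against V. In that setting 1 of 10 passed in SA against V (SOCS3) and 1 of 10 in WT against V (LIF). The comparisons against V share its 3 libraries. Between the AHR lines no gene of the family passed. In SD against WT 0 of 10 passed (0.708% of all genes), with 5 at an unadjusted p under 0.05 (IL6, IL11, OSMR, IL6ST and SOCS3), as had 10.6% of all genes. In SD against SA 0 of 10 passed (0.22%), with 4 at an unadjusted p under 0.05 (IL6, OSMR, IL6ST and LIFR; 8.52% of all genes). In WT against SA 0 of 9 passed (0.0803%), with 2 at that level (IL11 and SOCS3; 7.31% of all genes). DESeq2 also called 0 genes of the family in these 3 comparisons, of the 4, 9 and 4 to which it gave an adjusted p. The SD libraries lay above all WT libraries for 3 genes (IL6, OSMR and SOCS3; 8.33% of all genes) and above all SA libraries for 4 (IL6, LIFR, OSMR and IL6ST; 6.81%).

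In 1 test of any difference among the 4 lines over the 12 libraries, 3 of the 10 genes passed: SOCS3 (F = 12.4, adjusted p = 0.00175, edgeR), IL6 (F = 11.2, adjusted p = 0.00299) and OSMR (F = 7.79, adjusted p = 0.0188). Of all 15453 genes, 6.41% passed this test. OSMR did not pass without SD replicate 1. IL6ST (adjusted p = 0.0648) and LIFR (0.0772) did not pass. IL6ST passed when every gene with at least 1 count was tested (adjusted p = 0.0126), with DESeq2 (0.0337), without SA replicate 3 (0.0291) and without SD replicate 3 (0.0434). LIFR passed without V replicate 3 and IL6R without V replicate 1. SD had the highest mean for 7 of the 10 genes (24.2% of all genes) and V the lowest for 6 (29.6%).

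The other ligands and receptor chains of the family showed no called difference. Of 13 genes, 5 or 6 were abundant enough to be tested, and 0 passed in each of the 6 comparisons, with at most 2 in a comparison at an unadjusted p under 0.05 (edgeR; 2 in SA against V, where 20% of all genes were at that level). DESeq2 also called 0, of the 0 to 5 to which it gave an adjusted p. CLCF1, a ligand of the CNTF receptor, was the most abundant of them, with line means of 16.6 ± 3.06 (V), 18.4 ± 0.515 (WT), 18.8 ± 1.12 (SA) and 17.1 ± 1.14 CPM (SD). IL27RA was at 8.78 ± 2.00 CPM in V and 10.4 ± 0.395 in SD. OSM, the ligand of OSMR, had no count in the WT and SD libraries and 0 to 2 counts in those of V and SA. The list also held GFRAL, which is not a receptor chain of this family. IL27, IL31 and GFRAL had no count in any of the 12 libraries.

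Among 23 kinases, phosphatases, adaptors and inhibitors of the pathway, JAK1 and SHC1 passed, each in the same 2 comparisons. These were SA against V (2 of 23 tested, beside 7.17% of all genes) and SD against V (2 of 22, beside 5.41% of all genes). JAK1, the kinase bound to IL6ST, had line means of 198 ± 2.64 (V), 184 ± 1.01 (WT), 173 ± 12.2 (SA) and 169 ± 5.26 CPM (SD). It fell in SA against V by 0.19 on the log2 scale (SE 0.05, adjusted p = 0.0326, edgeR) and in SD against V by 0.23 (SE 0.05, adjusted p = 0.0112). SHC1, an adaptor towards the Ras pathway, had line means of 311 ± 9.53 (V), 338 ± 14.1 (WT), 361 ± 3.17 (SA) and 360 ± 7.67 CPM (SD), and rose in SA (0.22, adjusted p = 0.0035) and in SD (0.21, adjusted p = 0.0134) against V. Each of these 4 calls was lost without V replicate 1. JAK1 in SA was also lost without V replicate 2 or 3 or SA replicate 1 or 3, JAK1 in SD without V replicate 2, and SHC1 in SD without V replicate 2 or SD replicate 2. In the other 4 comparisons 0 of the 22 or 23 tested passed with edgeR or with DESeq2. Those at an unadjusted p under 0.05 numbered 1 in SD against WT (10.6% of all genes), 1 in SD against SA (8.52%), 0 in WT against SA (7.31%) and 5 in WT against V (17.4%), all with edgeR.

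Of 24 genes known to respond to STAT3 or to the acute-phase response, those that passed moved in both directions, and the number tested was 14 to 16. In SD against V, 4 rose and 4 fell of 15 tested, and of all genes 2.92% rose and 2.49% fell. In SA against V, 3 rose and 3 fell of 16 (3.88% and 3.29% of all genes), and in WT against V, 2 rose and 3 fell of 14 (2.31% and 2.93%). The fibrinogen genes FGA, FGB and FGG, liver acute-phase products that A549 cells also make, were among those that fell. FGA was at 16.9, 10.3 and 14.3 CPM in V, 4.07, 7.63 and 6.23 in WT, 5.81, 1.88 and 3.18 in SA, and 4.004, 4.18 and 5.70 in SD. No library with introduced AHR reached the level of a V library. FGA fell by 1.18, 1.96 and 1.56 on the log2 scale in WT, SA and SD against V (SE 0.20, 0.25 and 0.20, adjusted p = 2.66e-04, 6.47e-06 and 6.34e-06, edgeR), and kept these calls without each library.

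FGB was lowest in SA, at 0.401, 0.171 and 0.265 CPM, against 4.94, 2.23 and 4.21 in V. It fell by 3.74 in SA (adjusted p = 6.55e-06) and by 1.87 in SD (adjusted p = 0.0090) on the log2 scale. In WT against V it was −1.06 (adjusted p = 0.0904). FGG fell by 1.66 in WT, 1.55 in SA and 1.76 in SD, and lost each of these calls without V replicate 1. It also lost them in WT without WT replicate 1 or 3, and in SA without SA replicate 3 (adjusted p up to 0.168 over these fits). FGB in SD lost its call without V replicate 1 or 3 or SD replicate 2.

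VEGFA, TIMP1 and IL4R rose. VEGFA, the angiogenic factor, had line means of 64.2 ± 3.23 (V), 78.3 ± 5.16 (WT), 85.4 ± 2.48 (SA) and 95.7 ± 5.97 CPM (SD). Its log2 fold changes against V, all past the threshold, were 0.28 (WT), 0.41 (SA) and 0.58 (SD) (adjusted p = 0.0116, 1.32e-04 and 2.57e-06, edgeR). VEGFA was also the only gene of the 3 pathway lists to pass between AHR lines, with a difference of 0.29 between SD and WT (SE 0.07, adjusted p = 0.0452). That call was lost when any 1 of the 6 libraries was left out (adjusted p = 0.0559 to 0.210). DESeq2 called BCL3 and CCND1 there as well. In edgeR BCL3 was higher in SD than in WT (log2 fold change 0.23) and CCND1 lower (−0.19). In SD against SA 0 of 14 passed and in WT against SA 0 of 15, with edgeR or DESeq2. With edgeR, the unadjusted p was under 0.05 for 3 in SD against SA (8.52% over all genes) and 8 in WT against SA (7.31%). It was under 0.05 for 8 of 14 in SD against WT (10.6%). Those in WT against SA moved in both directions. TIMP1, a metalloproteinase inhibitor, rose by 0.23 in WT, 0.33 in SA and 0.36 in SD against V (adjusted p = 0.0130, 7.80e-04 and 2.09e-04). IL4R, a receptor chain for interleukin 4, rose in SD by 0.41 (adjusted p = 0.0057), and lost that call without V replicate 3 (adjusted p = 0.0653).

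Of the remaining list members that passed, BCL2L1, which blocks apoptosis, fell by 0.21 on the log2 scale in WT (adjusted p = 0.0133, edgeR) and by 0.35 in SD (adjusted p = 2.96e-04) against V. BCL3, a nuclear regulator of NF-kB, rose by 0.21 in SD (adjusted p = 0.0346), a call lost with DESeq2 and without each of the V libraries, SD replicate 2 or SD replicate 3. CEBPD, a transcription factor of the acute-phase response, rose by 0.26 in SA (adjusted p = 0.0105), a call lost without V replicate 3 or SA replicate 3. BCL2L1 in WT lost its call without V replicate 1 or 2 or WT replicate 2, and kept it in SD without each library. TIMP1 and VEGFA in WT lost theirs without V replicate 1, and TIMP1 also without WT replicate 3 and VEGFA without WT replicate 1. The TIMP1 and VEGFA calls in SA and SD held without each library.

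**Figure D4:**
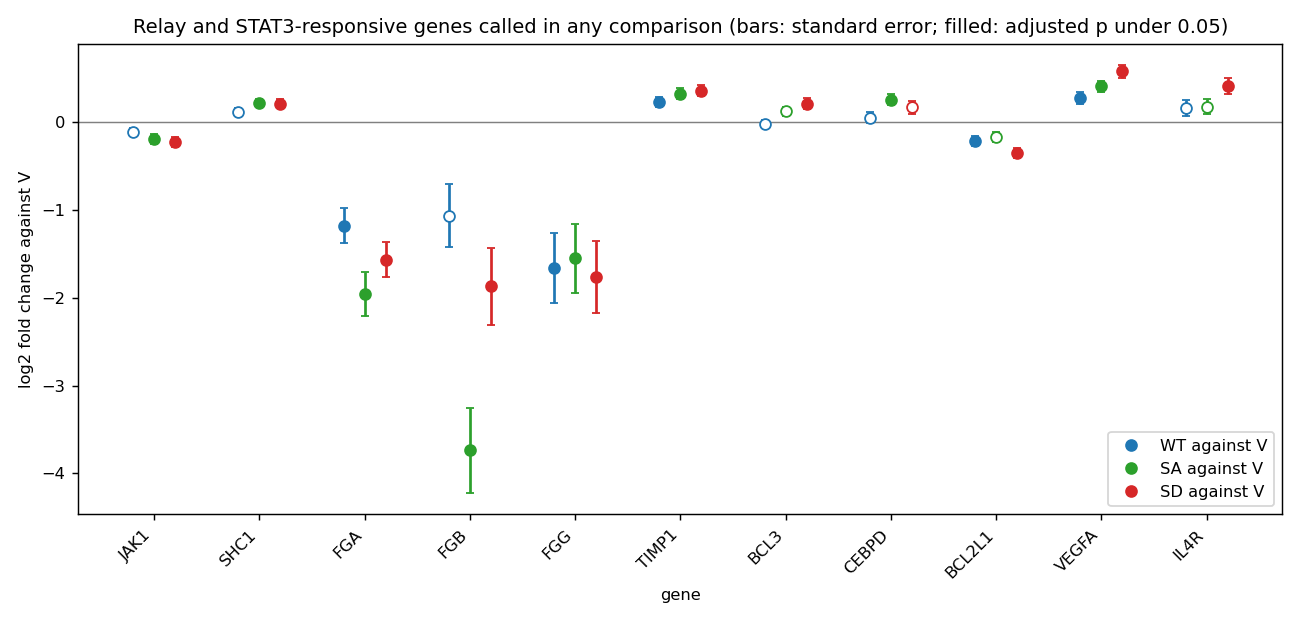
log2 fold change against V (points with standard error, coloured by line) of the relay and STAT3-responsive genes that passed in any of the 6 comparisons, with filled points at an adjusted p under 0.05. The fibrinogen genes lie between −1.06 and −3.74, while JAK1, SHC1, TIMP1, BCL3, CEBPD, BCL2L1, VEGFA and IL4R stay within 0.58 of 0.

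For the 3 members with the widest span between line means (2.39 for IL6, 0.44 for SOCS3 and 0.41 for IL6R, on the log2 CPM scale), the genes most like them over the 12 libraries were ranked by Pearson's r across 15452 other genes. These are descriptions, since the libraries of a line share that line. The genes most like IL6 were GLIPR1 (r = 0.946), REXO2 (0.923) and COL4A6 (0.908). GLIPR1 had line means of 24.5 ± 2.18 (V), 27.2 ± 2.09 (SA), 29.5 ± 0.512 (WT) and 37.0 ± 2.11 CPM (SD), the same order of lines as IL6. REXO2 and COL4A6 had that order too, and all 3 were picked for their likeness to IL6 in these same libraries. Those most like SOCS3 were PGM1 (0.938), PC (0.936) and TIMP1 (0.926), and those most like IL6R were ERLIN1 (0.902), TSHZ1 (0.891) and HDAC1 (0.876). Like IL6R, all 3 of these were higher in V replicate 1 than in V replicates 2 and 3. TSHZ1 was at 16.6 CPM against 11.0 and 11.4, ERLIN1 at 109 against 93.6 and 92.6, and HDAC1 at 78.0 against 69.2 and 68.7.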

How the data were processed

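RNA of 12 libraries (4 lines, 3 biological replicates each) was sequenced after poly A enrichment. Per the labels and methods, the authors used Trimmomatic 0.39 for trimming and RSEM with GRCh38 transcripts for quantification. The deposited values are expected counts for 60623 genes that were not normalized. A read shared by several genes is split among them by RSEM, which left 3.24% to 3.61% of values per library as fractions of a count. The ordered-gene table that the authors deposited holds their own fold changes and p-values and was not used here.

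Rounded counts were tested with edgeR 4.0.16 (R 4.3.3). A comparison used only the 6 libraries of its lines, after filterByExpr (minimum count 10, minimum total count 15) and TMM normalization, with the two-sided quasi-likelihood test and Benjamini-Hochberg adjustment over all genes tested (threshold 0.05). Standard errors were derived from the F statistics, and 95% intervals from them by a normal approximation. These intervals are therefore narrower than the test itself allows, and one can leave out 0 where the unadjusted p is above 0.05. CPM used TMM factors over the 12 libraries, and log2 CPM a prior count of 2. Exonic lengths came from GENCODE v44 (60295 genes matched, 53489, or 88.7%, with the deposited coordinates), and upstream sequences from RefSeq. The fits were tested on simulated counts. Nothing used here says whether replicates were separate cultures, so p-values measure the spread between these libraries. No 2 libraries of a line were copies of each other (chi-square per degree of freedom 2.50 to 6.88).

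The alternatives were every gene with at least 1 count, DESeq2's size factors, DESeq2 1.42.0, all 12 libraries in one fit, a replicate block and each library left out. The genes, lists and tests were chosen with earlier results of these data known. The genes named are the 10 members, list genes that passed in at least 1 comparison, AHR, and the 3 genes most like each of the 3 members with the widest span. CLCF1, IL27RA, OSM, IL27, IL31, GFRAL and the marker genes named were chosen after their values were seen.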

Additional observations from a re-analysis of the deposited data

How the results depend on the processing

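The calls of IL6 and SOCS3 in SD against V and of SOCS3 in SA against V were kept under every alternative that gave a value (DESeq2 gave IL6 no adjusted p). Counts of family genes called moved as follows. SD against SA went from 0 to 1 (OSMR) when every gene with at least 1 count was tested and with the replicate block. WT against V went from 1 to 0 with all 12 libraries in one fit and with the replicate block, and lay between 0 and 1 with a library left out. SD against V went from 5 to 3 with DESeq2 and with the replicate block, and lay between 2 and 5 with a library left out. The test among the 4 lines gave 2 to 4 with a library left out, and 4 in place of 3 (IL6ST added) with every gene tested and with the block. With the block, the calls of LIF in WT against V (adjusted p = 0.0935), of LIFR and IL6ST in SD against V (0.0772 and 0.0606) and of BCL2L1 in WT against V (0.0598) were lost. The cause of these moves was not tested. Whether the replicate numbers pair the libraries was not settled. Of 18 correlations of deviations between same-numbered libraries, 1 exceeded 0.1 (−0.0375 to 0.106). Those among WT, SA and SD were all positive but small (0.0171 to 0.0549), and those with V had either sign. In all, 6 of 12 libraries correlated best with their own number.

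Some log2 fold changes near 0, none called, changed sign, and their ranges with a library left out were as follows. In SD against WT this held for LIF (−0.049 to 0.069) and IL6R (−0.049 to 0.053). In SD against SA this held for IL11 (−0.082 to 0.12), LIF (−0.15 to 0.017), IL6R (−0.011 to 0.092) and SOCS3 (−0.00043 to 0.12). In WT against SA this held for IL11RA (−0.16 to 0.101). In SA against V this held for IL11 (−0.0027 to 0.196), OSMR (−0.038 to 0.035), IL6ST (−0.0601 to 0.043) and STAT3 (−0.018 to 0.047). IL6ST in SA against V was 0.0074 with every gene tested and 5.2e-05 with DESeq2. Of 614 recomputed member values, 566 kept direction and call, 23 lost the call and 5 gained one.

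Over all genes, the number called in SD against WT was 105, and 252 with every gene tested and 245 with the block. It was 33, 153 and 165 in SD against SA, and 12, 103 and 25 in WT against SA. With a library left out it lay between 45 and 145, 11 and 56, and 2 and 25 in these comparisons. Against V it lay between 434 and 720 for WT, 621 and 1195 for SA and 502 and 856 for SD, and for the 4 lines between 572 and 1072 (990 with all). It fell from 774 to 507 with the block in WT against V, and with DESeq2 from 1069 to 704 in SA against V and from 806 to 521 in SD against V. DESeq2 gave 18 in WT against SA, and all 12 libraries in one fit gave 5. For relay and STAT3-responsive genes, recomputed the same way after the data were seen, 221 values kept the call and 43 lost it. IL6 in V rests on 6 counts, so its fold is imprecise, and 3 libraries per line limit every test.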
